A study of Mus musculus with 6 samples.

Results

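The RBPJ transcription complex was followed through 9 genes in BaF3 cells given a Notch1 plasmid: the DNA-binding factor Rbpj, the coactivator scaffolds Maml1, Maml2 and Maml3, the acetyltransferases Crebbp, Ep300 and Kat2b, the corepressor Spen and the histone deacetylase Hdac1. They were taken by symbol, and all 9 were found among the 16799 genes present in both deposited tables. BaF3 is a mouse cell line that needs interleukin-3 to grow, and the labels call it a pro-B leukaemia line. Cells were nucleofected with pmax-Clover-CTdel, with pmax-Clover-ICN or with pmax-Clover alone (con), and were sorted after 24 h. Growth was in medium with 2 ng/mL interleukin-3 and 10% serum. ICN is the usual name of the intracellular part of Notch, here of Notch1, and the series text calls the other insert a mutated ICN. What CTdel abbreviates, and from which species the insert came, is not stated in the sources used here. Clover is a green fluorescent protein that all 3 groups carried. Each group had 2 libraries, made with an mRNA kit. The labels do not name separate cultures for them, and the error behind a p-value is then that of the libraries, which may be technical.

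Notch receptors are cut when they bind a ligand, and the freed intracellular part enters the nucleus. There it binds RBPJ (also called CSL), which sits on DNA with or without Notch. Without Notch, RBPJ holds corepressors such as SPEN (known as SHARP in humans and MINT in mice) together with histone deacetylases. With Notch, a mastermind-like protein docks on the joint surface of Notch and RBPJ and recruits the acetyltransferases CBP and p300, and PCAF (the product of Kat2b) also acts as a coactivator. The Notch part of that complex is then marked for destruction by the kinase CDK8 and the ubiquitin ligase FBXW7. In blood cells this pathway is known for driving the T-cell fate.

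The deposited values were FPKM, which correct for the length of a transcript, so levels of different genes can be set side by side. Each library's FPKM added up to a total from 489693 to 507894. The number of reads is not given, but the smallest values of short RNA genes put the depth of the libraries between 0.962 and 1.08 times that of con replicate 1. This is a rough median over 33 gene lengths. In the other libraries only 12 to 16 of these lengths came within 2% of it. Replicates 1 and 2 came in tables of their own, so changes were taken within a table. Notch1, the transfected gene, had FPKM 84.9 and 25.4 in CTdel (replicates 1 and 2). It had 190 and 888 in ICN and 0.89 and 1.72 in con. These values do not separate plasmid from cellular RNA. Of 12 pro-B markers 10 were in both tables, 8 of which stayed under FPKM 1 in all 6 libraries, Ebf1, Il7r and Rag1 among them. Cd79b ran from 3.62 to 13.4, Cd79a from 0 to 3.15, and the interleukin-3 receptor gene Il3ra from 19.0 to 35.1. All 6 T-cell markers measured stayed under 1. Of the markers of other lineages that were measured, 4 of 4 erythroid ones reached 1 in all 6 libraries. So did 2 of 2 mast and basophil markers, 2 of 6 myeloid markers and 1 of 4 fibroblast and endothelial markers.

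None of the 9 genes passed an adjusted p of 0.05 in any comparison, in limma's test of log2(FPKM + 1) with Benjamini-Hochberg adjustment over 11050 genes. That is 0 of 9 in CTdel against con, where 1.41% of all tested genes passed (1.3% higher and 0.109% lower), and 0 of 9 in ICN against con, where 0.0362% passed, all of them higher. It is also 0 of 9 in CTdel against ICN, against 0.0181% of all genes, all of them lower. With both forms together against con it is 0 of 9, against 1.11% (1.01% higher and 0.0995% lower). Before adjustment, Rbpj had p under 0.05 in CTdel and with both forms together, and Crebbp had it in ICN. Among all tested genes 11.8% had such a p in CTdel against con, 15.4% with both forms together and 15% in ICN, and 7.13% did in CTdel against ICN, where 0 of the 9 did. The SE of a change lay between 0.19 and 0.41 on the log2 scale across the 9 genes in the comparisons of 2 groups. The transfected Notch1 also missed this threshold in each comparison of 2 groups, with a log2 change of 4.39 in CTdel (adjusted p = 0.0947), 7.51 in ICN (adjusted p = 0.103) and −3.11 in CTdel against ICN (adjusted p = 0.604). It passed with both forms together, at 5.95 (adjusted p = 0.0336), but not without the filter on low values (0.215), with quantile normalization (0.0554), or without con replicate 1 (0.0701) or 2 (0.078). Missing the threshold therefore does not show that a gene did not differ. All 9 genes passed the filter on low values, and each reached FPKM 1 in all 6 libraries.

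The genes differed far more from each other than between groups. Hdac1, Rbpj, Ep300 and Spen were the 4 highest in all 6 libraries, in that order, and Maml2 was the lowest in all 6. Hdac1 averaged FPKM 88.0 ± 2.52 in CTdel, 82.0 ± 6.25 in ICN and 89.2 ± 4.72 in con (SD, n = 2). It stood above 94.0% to 94.6% of the genes detected in each library. Maml2 stood above 32.1% to 48.9% of them. Hdac1 and Rbpj were level in con replicate 1, at 85.9 and 85.1, and apart in the other 5 libraries. Between these ends, Kat2b, Crebbp, Maml1 and Maml3 traded places from library to library. In con they averaged 7.13 ± 1.73, 6.41 ± 1.07, 5.95 ± 0.757 and 6.11 ± 0.516, a span narrower than the gap between the Kat2b replicates. Multiplied by the length of the longest listed transcript in kilobases, FPKM gives fragments scaled to library size alone, if all came from that transcript. These run from 7.88 (Maml2 in con replicate 2) to 467 (Rbpj in con replicate 1). The listed Maml2 transcripts have 6404 and 2264 bases, so its values may be too high. In the other 5 libraries Maml2 had 24.7 to 31.2.

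**Figure D1:**
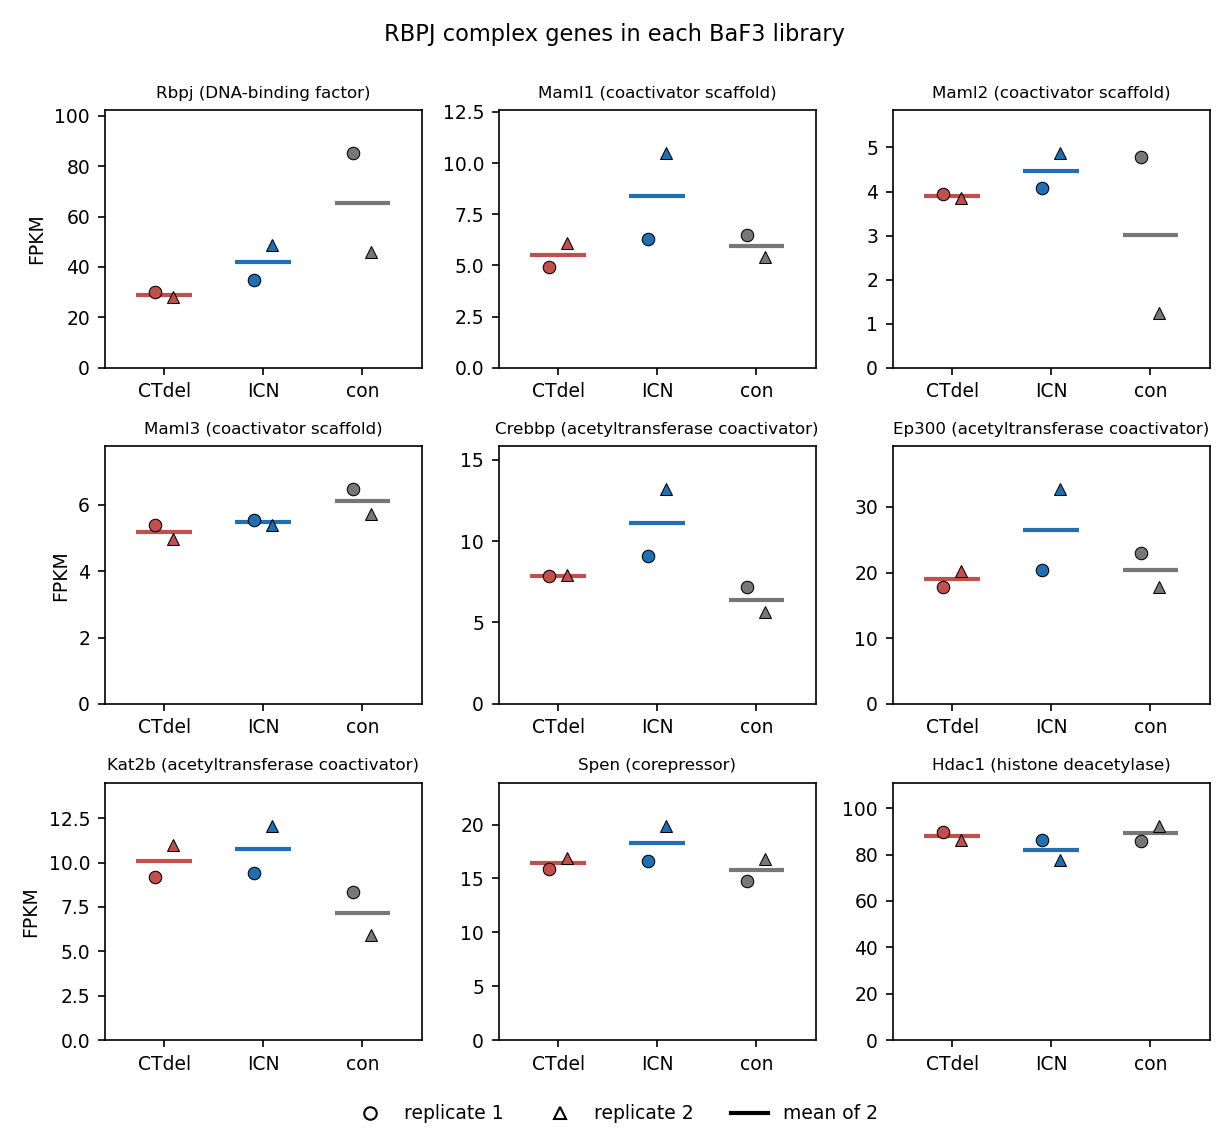
FPKM of the 9 genes in each library, by group (CTdel, ICN, con), with circles for replicate 1, triangles for replicate 2 and a bar for the mean of 2. Rbpj lies between 28 and 29.8 in CTdel and between 45.8 and 85.1 in con, while Hdac1 stays between 77.6 and 92.5 in all 6 libraries.

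Rbpj, which anchors the complex to DNA, had the largest fitted change of the 9 in CTdel. Its FPKM was 29.8 and 28 in CTdel, 34.9 and 48.7 in ICN, and 85.1 and 45.8 in con. The CTdel values lay below all 4 other libraries, whereas the ICN values straddled con replicate 2. The levels averaged 28.9 ± 1.30 in CTdel, 41.8 ± 9.77 in ICN and 65.5 ± 27.8 in con (SD, n = 2). The con libraries alone differed by 1.86 times, the widest gap between replicates of a group for this gene. The log2 change was −1.09 ± 0.34 in CTdel (SE; adjusted p = 0.271 in limma's test) and −0.59 ± 0.34 in ICN (adjusted p = 0.439). With both forms together it was −0.84 ± 0.29 (adjusted p = 0.269). Within tables, CTdel stood at 0.351 and 0.611 of con in replicates 1 and 2, and ICN at 0.409 and 1.06. Leaving out an ICN library cannot move the log2 change in CTdel, since all CTdel and con libraries remain. Its value of −1.09 in those fits is therefore no sign of stability, and only the estimate of the spread differs there. Leaving out a con library moved it to between −1.62 (without con replicate 2, adjusted p = 0.0946) and −0.55 (without con replicate 1, adjusted p = 0.4995). CTdel against ICN was −0.50, with a 95% interval from −1.33 to 0.34.

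The Rbpj row (Gene ID 19664, chromosome 5, 53555779 to 53657445 in GRCm38) sums 4 listed transcripts, so the values do not separate isoforms. RefSeq also names 3 Rbpj pseudogenes, none of which has a row in the tables. How fragments shared with them were counted is not given in the sources used here, and the level is uncertain to that extent. A RefSeq promoter window of Rbpj is printed because this gene had the largest change in CTdel, and because RBPJ itself binds the letters TGGGAA. The windows found for Rbpj lie inside the span given above, not at its first base, so they stand for internal starts. Whether these cells use those starts is not shown by the values. RefSeq windows of GRCm38.p6 span 250 bases before to 50 bases after a start, and capitals mark TGGGAA on either strand. In the window at chr5:53590096-53590395 (plus strand) the letters occur on the gene's strand 149 bases before the start and on the other strand from 65 bases before it:

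Rbpj: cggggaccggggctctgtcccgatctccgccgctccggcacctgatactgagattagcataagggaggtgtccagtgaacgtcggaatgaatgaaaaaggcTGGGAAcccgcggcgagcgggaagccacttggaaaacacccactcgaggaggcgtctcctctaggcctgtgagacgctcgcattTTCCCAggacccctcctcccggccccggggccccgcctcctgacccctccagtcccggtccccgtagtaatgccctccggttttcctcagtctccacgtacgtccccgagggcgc

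A second Rbpj window, which starts within the first, holds TGGGAA once, at the same site as the match on the other strand in the first. Windows were found for 8 of the 9 genes, 11 windows in all, and 5 of the 11 hold TGGGAA on at least 1 strand (Rbpj in 2 windows, Maml2, Maml3 and Spen in 1 each), with that Rbpj site counted in 2 of the 5. Over all 32851 windows the share is 25.6%, and over windows of tested genes it is 23%. A match describes these letters only and is no evidence of binding. The members' windows had a median GC content of 64.7%, beside 60.3% for windows of tested genes and 52.7% for all.

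The mastermind-like genes encode the scaffold that bridges Notch, RBPJ and the acetyltransferases. In GRCm38, Maml1 (Gene ID 103806) lies on chromosome 11 from 50255634 to 50293131, Maml2 (Gene ID 270118) on chromosome 9 from 13296561 to 13709533, and Maml3 (Gene ID 433586) on chromosome 3 from 51687320 to 52105319. Maml1 had FPKM 4.90 and 6.10 in CTdel, 6.27 and 10.5 in ICN, and 6.48 and 5.41 in con. The high value is that of ICN replicate 2, and the other 5 libraries lie between 4.90 and 6.48. Its log2 change was −0.10 ± 0.27 in CTdel (SE; adjusted p = 0.936) and 0.40 ± 0.27 in ICN (adjusted p = 0.496). Maml2 had 3.94 and 3.86 in CTdel, 4.08 and 4.87 in ICN, and 4.78 and 1.23 in con. Here the odd library is con replicate 2, and con replicate 1 lies with the other groups. The log2 change of Maml2, 0.45 ± 0.41 in CTdel and 0.61 ± 0.41 in ICN (adjusted p = 0.772 and 0.501), rests on that library. Without con replicate 2 it was −0.28 in CTdel and −0.13 in ICN. Maml3 had 5.41 and 4.96 in CTdel, 5.54 and 5.41 in ICN, and 6.47 and 5.74 in con. All 4 libraries with a Notch1 plasmid were below both con libraries, but by little. Its log2 change was −0.20 ± 0.20 in CTdel and −0.13 ± 0.20 in ICN (adjusted p = 0.799 and 0.767).

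Maml1 and Maml3 made up most of the summed mastermind-like FPKM in each library. The sum was 14.6 ± 0.474 in CTdel, 18.3 ± 3.44 in ICN and 15.1 ± 3.78 in con (SD, n = 2). Maml1 held 37.6% ± 4.60 of it in CTdel, 45.0% ± 7.79 in ICN and 40.1% ± 5.06 in con. Maml2 held 26.8% ± 1.26 in CTdel and 24.6% ± 1.57 in ICN. In con its share was 27.0% in replicate 1 and 9.94% in replicate 2. Maml3 held 35.6% ± 3.34 in CTdel, 30.5% ± 6.23 in ICN and 41.4% ± 6.98 in con. The ranges of CTdel and con overlapped for all 3 shares, as did those of ICN and con for Maml1 and Maml2. The Maml3 share was 34.9% and 26.1% in ICN, below the 36.5% and 46.4% in con. Rbpj exceeded the mastermind-like sum in every library, by 2.09 and 1.88 times in CTdel, 2.19 and 2.34 times in ICN, and 4.80 and 3.70 times in con, a ratio computed after the levels had been seen.

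**Figure D2:**
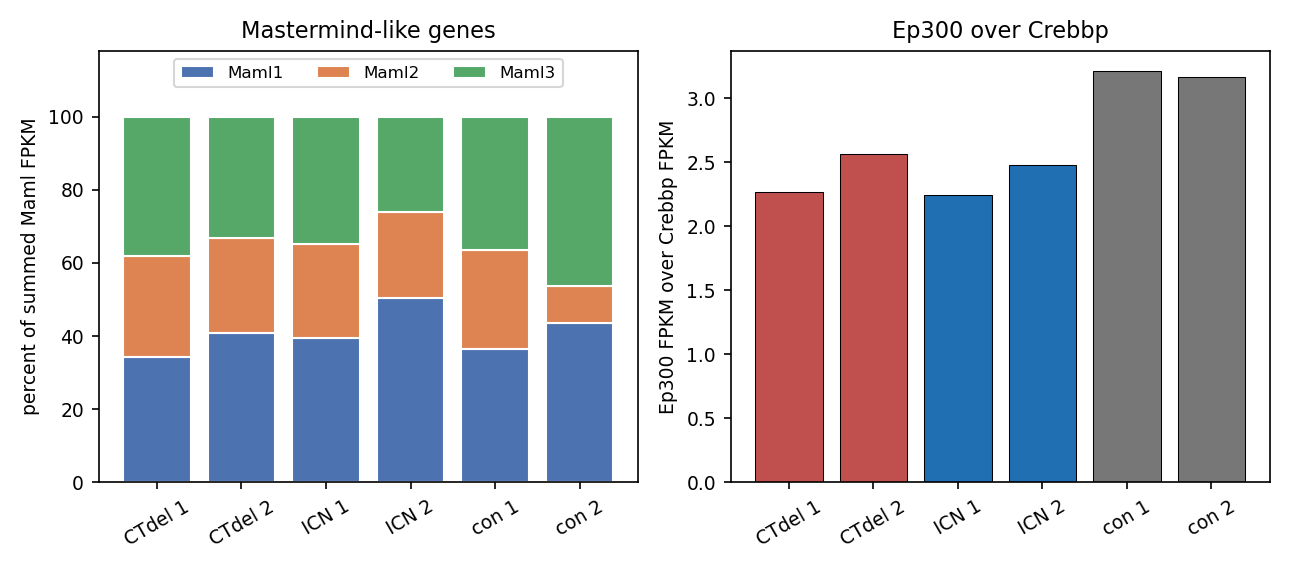
Left, share of Maml1, Maml2 and Maml3 in their summed FPKM in each library, in percent; right, FPKM of Ep300 over that of Crebbp in each library. The Maml2 share drops to 9.94% in con replicate 2, and the Ep300 ratio lies between 2.25 and 2.57 in CTdel and ICN and between 3.16 and 3.21 in con.

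Crebbp and Ep300 encode CBP and p300, close paralogs that acetylate histones and open chromatin at Notch targets. In GRCm38, Crebbp (Gene ID 12914) lies on chromosome 16 from 4081334 to 4213957 and Ep300 (Gene ID 328572) on chromosome 15 from 81586209 to 81652077. Crebbp had FPKM 7.86 and 7.90 in CTdel, 9.05 and 13.2 in ICN, and 7.16 and 5.65 in con. The groups did not overlap: both ICN libraries lay above both CTdel libraries, and these above both con libraries. The share of all tested genes with the 3 groups apart was not counted. In either direction 42.3% were apart between ICN and con, 41.8% between CTdel and con and 40.6% between CTdel and ICN. The means were 7.88 ± 0.0283 in CTdel, 11.1 ± 2.91 in ICN and 6.41 ± 1.07 in con (SD, n = 2). The log2 change was 0.70 ± 0.25 in ICN (SE; adjusted p = 0.310) and 0.27 ± 0.25 in CTdel (adjusted p = 0.781). CTdel against ICN was −0.43, with a 95% interval from −1.05 to 0.20. Without ICN replicate 1, which leaves ICN replicate 2 alone in its group, the log2 change in ICN was 1.02. Without ICN replicate 2 the change was 0.38. Ep300 had 17.8 and 20.3 in CTdel, 20.3 and 32.7 in ICN, and 23.0 and 17.9 in con. ICN replicate 2 is again the high value, and the other 5 libraries overlap. Its log2 change was −0.09 ± 0.28 in CTdel and 0.33 ± 0.28 in ICN (adjusted p = 0.945 and 0.585).

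The ratio of the paralogs was also taken in each library. Ep300 stood at 2.42 ± 0.213 times Crebbp in CTdel, at 2.36 ± 0.165 times in ICN and at 3.19 ± 0.0340 times in con (SD, n = 2). All 4 libraries with a Notch1 plasmid, from 2.25 to 2.57, lay below both con libraries, at 3.21 and 3.16. The ratio was not tested. The promoter window of Crebbp (chr16:4213355-4213654, minus strand) is printed beside that of Rbpj as the member whose groups stood apart in order. It holds no TGGGAA, has a GC content of 82%, and is therefore in lower case throughout:

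Crebbp: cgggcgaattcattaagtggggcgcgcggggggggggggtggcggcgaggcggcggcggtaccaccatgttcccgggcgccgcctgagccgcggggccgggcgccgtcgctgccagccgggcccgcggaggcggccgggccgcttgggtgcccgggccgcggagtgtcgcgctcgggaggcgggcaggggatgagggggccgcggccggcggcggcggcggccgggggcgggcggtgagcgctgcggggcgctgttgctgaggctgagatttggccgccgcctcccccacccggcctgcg

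Kat2b encodes PCAF, an acetyltransferase that joins the coactivators, at 53566774 to 53672721 on chromosome 17 (Gene ID 18519). It had FPKM 9.20 and 11.0 in CTdel, 9.43 and 12.1 in ICN, and 8.35 and 5.91 in con. All 4 libraries with a Notch1 plasmid lay above both con libraries, and CTdel and ICN overlapped. The means were 10.1 ± 1.26 in CTdel, 10.8 ± 1.87 in ICN and 7.13 ± 1.73 in con (SD, n = 2). The log2 change was 0.46 ± 0.26 in CTdel (SE; adjusted p = 0.612) and 0.54 ± 0.26 in ICN (adjusted p = 0.383), and 0.50 ± 0.22 with both forms together (adjusted p = 0.363). RefSeq names 1 Kat2b pseudogene, which has no row in the tables.

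Spen and Hdac1, on the side of repression, differed little between libraries. Both genes are on chromosome 4, Spen (Gene ID 56381) from 141467885 to 141538644 and Hdac1 (Gene ID 433759) from 129516104 to 129542646. Spen, a large protein that brings corepressors to RBPJ, had FPKM 15.9 and 16.9 in CTdel, 16.6 and 19.9 in ICN, and 14.8 and 16.8 in con. The groups overlapped, except that ICN replicate 2 was the highest library. Its log2 change was 0.05 in CTdel (95% interval −0.42 to 0.53; adjusted p = 0.955 in limma's test) and 0.20 in ICN (−0.28 to 0.67; adjusted p = 0.634). Hdac1, an enzyme that removes acetyl groups from histones, had 89.8 and 86.2 in CTdel, 86.4 and 77.6 in ICN, and 85.9 and 92.5 in con. ICN replicate 2 was its lowest library, and the ranges of CTdel and con overlapped. The log2 change was −0.02 in CTdel (95% interval −0.51 to 0.47; adjusted p = 0.987) and −0.12 in ICN (−0.61 to 0.37; adjusted p = 0.786). Its highest and lowest libraries were 1.19 times apart, against 1.30 times for Maml3, 1.35 times for Spen and 3.96 times for Maml2. RefSeq names 1 Hdac1 pseudogene with no row in the tables, so shared fragments may sit in this value.

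The Spen window (chr4:141538548-141538847, minus strand) is printed because it holds the longest match among the 11, GTGGGAA, which 6.38% of all windows hold. The match contains TGGGAA, in capitals, 8 bases before the start, on the gene's strand. The letters CGTGGGAA were in 0 of the 11 windows and in 0.734% of all windows:

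Spen: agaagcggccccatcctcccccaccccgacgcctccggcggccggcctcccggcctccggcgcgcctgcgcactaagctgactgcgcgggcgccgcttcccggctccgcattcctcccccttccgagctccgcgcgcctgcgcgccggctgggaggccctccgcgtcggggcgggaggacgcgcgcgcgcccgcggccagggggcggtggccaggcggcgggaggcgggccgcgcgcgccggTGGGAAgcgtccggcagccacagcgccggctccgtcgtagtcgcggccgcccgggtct

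**Figure D3:**
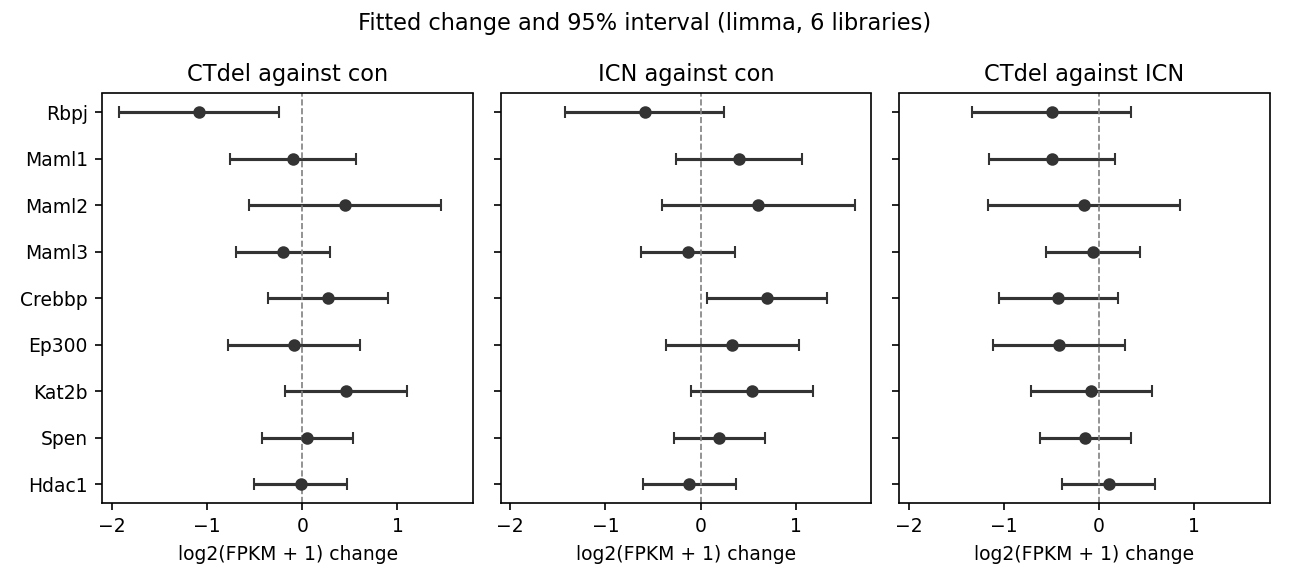
Fitted log2(FPKM + 1) change of each gene (points) with its 95% interval (bars) for CTdel against con, ICN against con and CTdel against ICN. The unadjusted intervals of Rbpj in CTdel (−1.92 to −0.25) and Crebbp in ICN (0.07 to 1.32) exclude 0, and none passed after adjustment.

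The genes were also counted by whether the libraries of 2 groups overlapped, with no test. In CTdel 2 of 9 lay above con without overlap (Crebbp and Kat2b), against 18.3% of all tested genes, and 2 lay below (Maml3 and Rbpj), against 23.5%, with 41.8% of all genes apart in either direction. In ICN 2 of 9 lay above (Crebbp and Kat2b), against 22.7%, and 1 below (Maml3), against 19.6% (42.3% in either direction). With both forms together 2 of 9 lay above con, against 12%, and 1 below, against 12.2% (24.2% in either direction). In CTdel against ICN 5 of 9 lay below without overlap (Rbpj, Maml1, Maml2, Crebbp and Ep300), against 25% of all genes, and 0 lay above, against 15.6% (40.6% in either direction). Some of these gaps between CTdel and ICN were narrow. Ep300 had 20.28 in CTdel replicate 2 and 20.33 in ICN replicate 1. Maml2 had 3.94 in CTdel replicate 1 and 4.08 in ICN replicate 1, and Maml1 6.1 in CTdel replicate 2 and 6.27 in ICN replicate 1. With a pair of libraries in each group such a separation is common. The comparisons with con share the con libraries.

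The replicate tables differed in what they showed of ICN. In replicate 1 the median difference of the 9 genes from con was −0.04 on the log2(FPKM + 1) scale, with 4 higher and 5 lower. In replicate 2 it was 0.83, with 7 higher and 2 lower. Of all tested genes 51.6% were higher in replicate 1 and 51.3% in replicate 2. Over all tested genes the medians were 0.02 in both replicates, and over the 1872 tested genes with transcripts of at least 5000 bases they were −0.04 in replicate 1 and 0.09 in replicate 2. The members highest in replicate 2 relative to con were Maml2 (1.40), Crebbp (1.09), Kat2b (0.92), Maml1 (0.84) and Ep300 (0.83). In replicate 1 the same genes had −0.19, 0.30, 0.16, −0.04 and −0.17. For CTdel the median of the 9 was −0.22 in replicate 1 and 0.15 in replicate 2.

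ICN replicate 2 stood apart in other measures as well. It had the highest Notch1 FPKM, 888, and the most genes above 0, 16946 against 14951 to 16413 in the other 5 libraries. Summed FPKM of 12 interferon-response genes was 1280.2 and 1302 in CTdel, 1341 and 3271 in ICN, and 440.5 and 158 in con. For 8 housekeeping genes it was 6815 and 6379 in CTdel, 6308 and 4465 in ICN, and 6456 and 7536 in con. The part of these differences in the members' values was not tested.

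**Figure D4:**
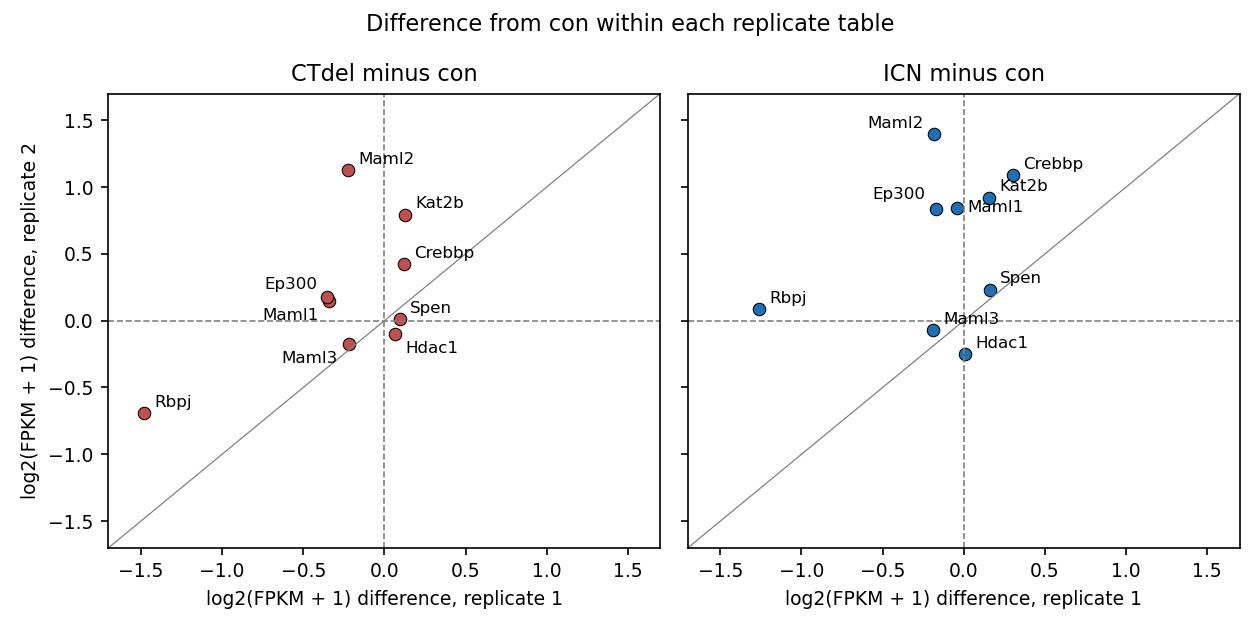
Difference from con in log2(FPKM + 1) in replicate 1 (horizontal) and replicate 2 (vertical) for the 9 genes, for CTdel (left) and ICN (right), with a diagonal where both replicates are equal. In ICN 5 genes lie between 0.83 and 1.40 in replicate 2 and between −0.19 and 0.30 in replicate 1, while Rbpj lies at −1.26 in replicate 1 and 0.08 in replicate 2.

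Other genes known to work with RBPJ were taken as 6 lists by role. With all 6 libraries in the fit, 0 of their 54 tested genes passed in any comparison by limma's adjusted p. Before adjustment 4 of the 54 had p under 0.05 in CTdel and 3 in ICN, beside 11.8% and 15% of all tested genes. In CTdel against ICN 3 did, beside 7.13%, and with both forms together 3 did, beside 15.4%. The 18 list genes named here were picked for the smallest p in their list, and some changes moved with an ICN library left out. Without ICN replicate 1 the log2 change in ICN was 0.94 for Snw1, 1.04 for Kdm5a and 1.49 for Cir1. Without ICN replicate 2 these were 0.40, 0.21 and 0.26. With both forms together, Kdm6b had 1.355 without ICN replicate 1 and 0.70 without replicate 2, and Tle1 0.61 and 0.87. Sirt1 in CTdel against ICN had −1.32 and −0.97. Of 16 further coactivators, all tested, 8 had positive and 8 negative changes in CTdel, and 9 and 7 in ICN. The medians were −0.01 in CTdel and 0.06 in ICN, beside −0.06 and 0.00 over all genes. Of all tested genes 42.7% were higher in CTdel than in con in replicate 1 and 47.3% in replicate 2. For ICN these shares were 51.6% and 51.3%. Kdm6b, which removes a repressive methyl mark from histones, had FPKM 27.1 and 25.4 in CTdel, 18.4 and 31.1 in ICN, and 17.6 and 7.78 in con (log2 change 1.03 with both forms together, adjusted p = 0.273). Snw1 (SKIP), which contacts both RBPJ and Notch, had 73.8 and 70.2 in CTdel, 82.4 and 108 in ICN, and 64.2 and 53.6 in con (log2 change 0.67 in ICN, adjusted p = 0.294). Its 4 libraries with a Notch1 plasmid lay above both con libraries. Phf8, another histone demethylase, had 14.6 and 11.8 in CTdel against 9.62 and 7.03 in con (log2 change 0.61, adjusted p = 0.298).

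Of the corepressors, the 6 genes of the NCoR and SMRT complex had median changes of −0.13 in CTdel and −0.03 in ICN. Tbl1xr1, an exchange factor of that complex, had FPKM 10.5 and 11.7 in CTdel against 14.9 and 19.8 in ICN (log2 change −0.59, adjusted p = 0.665). Gps2 had a log2 change of 0.27 with both forms together (adjusted p = 0.532), and Hdac3, the deacetylase of the complex, −0.25 in ICN (adjusted p = 0.644). The 12 SIN3, CtBP and CoREST partners had medians of −0.15 in CTdel and −0.26 in ICN, with 9 and 7 of 12 negative. Rcor1, the CoREST scaffold, had 19.6 and 23.0 in CTdel, 20.8 and 24.3 in ICN, and 34.9 and 28.8 in con (log2 change −0.52 with both forms together, adjusted p = 0.293). All 4 libraries with a Notch1 plasmid lay below both con libraries. Ctbp2 had a log2 change of −0.40 with both forms together (adjusted p = 0.383), and Kdm5a, a demethylase that RBPJ recruits to silence targets, 0.62 in ICN (adjusted p = 0.376).

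Sirt1, a deacetylase linked to repression of Notch targets, had the smallest p of these lists before adjustment, in CTdel against ICN. Its FPKM was 10.5 and 7.53 in CTdel, 20.4 and 21.3 in ICN, and 11.9 and 10.5 in con. Both ICN libraries were above the other 4, which overlapped. The log2 change of CTdel against ICN was −1.15 ± 0.22 (SE; adjusted p = 0.357 in limma's test), and adjusted p was 0.213 in ICN against con. Cir1, a corepressor that binds RBPJ, had 25.7 and 42.8 in ICN against 24.6 and 12.6 in con (log2 change 0.87, adjusted p = 0.357). L3mbtl3, which binds RBPJ and represses its targets, had 0.37 with both forms together (adjusted p = 0.472). Of the 9 genes in that list 4 were tested. Fhl1, Nrarp, Bcl6 and the Rbpj paralog Rbpjl stayed under FPKM 1 in all 6 libraries, and Bend6 passed 1 only in ICN replicate 2, at 2.71.

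The Groucho family includes corepressors that work with the Hes factors downstream of Notch, but not each gene of this list need act as one. Of its 6 genes 5 were tested (Tle1, Tle2, Tle4, Tle6 and Aes), and 5 had a positive change in CTdel and 4 in ICN. Their medians were 0.30 in CTdel and 0.33 in ICN. Tle1 had FPKM 27.1 and 27.6 in CTdel, 25.9 and 21.7 in ICN, and 12.3 and 17.8 in con (log2 change 0.74 with both forms together, adjusted p = 0.205). Its con libraries were the 2 lowest. Tle4 had a log2 change of 0.44 in ICN (adjusted p = 0.369) and Tle2 one of 0.34 with both forms together (adjusted p = 0.568). The 11 genes of the Mediator kinase module and the FBXW7 ligase, which end the life of nuclear Notch, had medians of −0.08 in CTdel and 0.22 in ICN. In CTdel against ICN 10 of the 11 had a negative change, with a median of −0.16, beside −0.04 over all genes. Of all tested genes 35.9% were higher in CTdel than in ICN in replicate 1 and 49.5% in replicate 2. Among the 9 members 8 also had a negative change in this comparison. Ccnc, the cyclin of that module, had a log2 change of −0.35 with both forms together (adjusted p = 0.415). Med13 had 0.54 in ICN (adjusted p = 0.404) and Med12l 0.45 in ICN (adjusted p = 0.435).

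The genes most like each member across the 6 libraries were ranked by Pearson's r of log2(FPKM + 1), with the mean of each table removed, among 11049 others. Rbpj was most like Myef2 (r = 0.9994), Ufl1 (0.9985) and Bcorl1 (0.9971). Crebbp was closest to Mx1, Wdr37 and P2rx4 (0.9994 each). Mx1 is an interferon-induced gene. The nearest genes of Ep300 were Fbxo6 (0.9993), Il11ra1 (0.999) and Gadd45a (0.9989), and those of Maml1 were Cnnm2 (0.9997), Tc2n (0.9993) and Setdb2-phf11c (0.9992). For Kat2b they were 9030617O03Rik (0.9995), Tmem59 (0.9981) and LOC100041034 (0.9978), and for Maml2 Casp9 (0.9976), Commd4 (0.9966) and Ticam1 (0.9964). Maml3 followed Tbp (0.9981), Ankrd54 (0.9976) and Zfp7 (0.9975), Spen followed Rexo1 (0.9992), Taf7 (0.9987) and Sdcbp2 (0.998), and Hdac1 followed Gm5801 (0.9979), Cct2 (0.9975) and 2700094K13Rik (0.9975). With so few libraries such values are easily reached: between 10 genes (Rbpj) and 72 genes (Crebbp) had r above 0.99 with a member. All points share the same 6 libraries, so these likenesses are a description only.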

How the data were processed

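The authors deposited FPKM per gene in a table for each replicate number, with 3 groups in each, per the file headers. RNA was extracted with TRIzol and an MGIEasy mRNA kit was used, per the labels' protocols. HISAT2, Bowtie2, RSEM and the builds hg19 and mm10 are named in the submitters' processing notes with no version or role. The tables held 17877 and 17868 genes, 16799 of them in both. Read totals are unknown, so no counting interval or detection limit was computed. Depth relative to con replicate 1 was taken from genes of up to 100 bases: for each of 33 lengths, the lowest FPKM above 0 of microRNA and small nucleolar RNA genes there was divided by that of a library, and the median was used. Coordinates and promoter windows come from RefSeq for GRCm38.p6, the assembly of mm10, and transcript lengths from GENCODE, matched for 98.74% of tested genes.

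Tests used limma 3.58.1 (R 4.3.3), 2-sided and with a trend in the spread, on log2(FPKM + 1) of the 11050 genes that reached FPKM 1 in 2 or more libraries, with Benjamini-Hochberg adjustment. Such changes understate those of low genes. The model held group and table (the replicate number) with 2 residual degrees of freedom (median prior 3.82). The fit was tested on simulated data with 200 changed genes. The simulated noise was normal, with the same spread for a gene in all libraries, no table effect and no outlying library. Of log2 changes of 1 it recovered 2.62% in CTdel against con, 2.2% in ICN against con and 1.9% in CTdel against ICN. With both forms together it recovered 9.75%. Of changes of 2 it recovered 71.4%, 72.2%, 71.3% and 84.2%, in the same order. These shares may not hold for the real libraries, of which ICN replicate 2 stood apart. Alternatives were a fit without the table, a pseudocount of 0.1, no filter, quantile normalization and each library left out. A group left with 1 library is assumed to vary like the others.

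The members, lists and tests were chosen with earlier results of these data known. Named were the 9 members, Notch1, up to 3 tested genes per list with the smallest p, and the 3 genes most like each member. Interferon-response genes, housekeeping genes and long transcripts are given only beside the members' values.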

Additional observations from a re-analysis of the deposited data

How the results depend on the processing

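The 9 genes had 0 calls in each comparison under the fits without the table, with a pseudocount of 0.1, without a filter and with quantile normalization. With a library left out the number of calls among the 9 was 0 to 1 in CTdel against con, in ICN against con and with both forms together, and 0 in CTdel against ICN. The calls were Rbpj in CTdel without ICN replicate 1 or 2, Crebbp in ICN without ICN replicate 1, and Rbpj with both forms together without ICN replicate 2 (log2 change −1.08, adjusted p = 0.0232). Over all genes, 156 passed in CTdel, 4 in ICN, 2 in CTdel against ICN and 123 with both forms together. Without a filter 0 passed in each by limma's test, with 1592, 2328, 1386 and 2098 genes at an unadjusted p under 0.05. With a pseudocount of 0.1, 0 passed in CTdel against ICN (744 at an unadjusted p under 0.05). With a library left out these counts ran from 109 to 731 in CTdel, 11 to 1470 in ICN, 2 to 891 in CTdel against ICN and 48 to 1240 with both forms together. Without ICN replicate 1 the counts were 729, 1470, 891 and 1240, and without ICN replicate 2 they were 731, 147, 9 and 577. Leaving the replicate number out as a block gave 130, 3, 2 and 132 calls. Replicate 1 minus replicate 2 correlated across genes at −0.0988 between ICN and con, 0.326 between CTdel and con and 0.236 between CTdel and ICN, so the numbers are not shown to pair the libraries.

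Signs of some changes turned with a library left out. These were not only the smallest: Maml2 had 0.61 in ICN with all libraries in the fit. In CTdel against con the log2 change ran from −0.44 to 0.25 for Maml1, −0.28 to 1.18 for Maml2, −0.0035 to 0.54 for Crebbp, −0.47 to 0.29 for Ep300, −0.0072 to 0.11 for Spen and −0.12 to 0.088 for Hdac1. In ICN it ran from −0.13 to 1.34 for Maml2, −0.0495 to 0.71 for Ep300 and −0.62 to 0.11 for Hdac3. With both forms together it ran from −0.19 to 0.49 for Maml1, −0.21 to 1.26 for Maml2, −0.26 to 0.50 for Ep300 and −0.18 to 0.0366 for Hdac1. In CTdel against ICN it ran from −0.61 to 0.30 for Maml2 and −0.29 to 0.13 for Kat2b. The cause was not tested.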
